A study of Homo sapiens with 4 samples.

Results

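The subunits of the mTOR kinase complexes and the TSC proteins that restrain them were examined in HCCLM3, a human hepatoma cell line that carried lentiviral short hairpins, 2 samples with a control hairpin (shCtrl) and 2 with a hairpin directed at KIAA1429 (shKIAA1429), a subunit of the complex that writes N6-methyladenosine into RNA. Rows were taken by gene name for 10 genes: MLST8, MTOR, RPTOR, RICTOR, AKT1S1, DEPTOR, MAPKAP1, PRR5, TSC1 and TSC2. Of these, 9 were listed, with 46 transcripts of the 38510 in the files and 9 of 13036 genes. DEPTOR, which encodes an inhibitor of mTOR, had no row and was not analysed here. The lowest maximum over the samples of any listed transcript was 0.504 FPKM. FPKM counts fragments mapped to a transcript per kilobase of its length, scaled to the mapped total of the sample. Every sample carries a hairpin, and nothing in the labels says whether a hairpin line was 1 clone or whether replicates came from separate cultures, so the spread between them may be technical. MLST8 entered the set for its difference between the groups, and the set was drawn up with that contrast known. The members' differences between groups are therefore given as description, without a test. In bulk RNA, fewer cells that express a gene and less RNA per cell cannot be told apart.

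mTOR is a protein kinase that couples growth to nutrients and growth factors, and it works in 2 assemblies. mTORC1, defined by RPTOR, phosphorylates regulators of translation and autophagy, whereas mTORC2, defined by RICTOR, MAPKAP1 and PRR5, phosphorylates AKT and related kinases. MLST8 is a WD-repeat protein bound to the kinase domain of mTOR in both assemblies. TSC1 and TSC2 form the complex that switches off RHEB, the GTPase that activates mTORC1.

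The targeted gene, listed as VIRMA, was at 9.37 and 14.1 FPKM with shCtrl, against 6.90 and 8.52 FPKM in shKIAA1429. Its log2 fold change, -0.53 (SE 0.24), had an adjusted p-value of 0.917 in limma, and the exact two-sided permutation p was 0.333, the smallest that 2 samples against 2 allow. Of 16 liver and hepatoma markers only SERPINA1, KRT8 and KRT18 were listed, and albumin, alpha-fetoprotein and the apolipoproteins had no row, while KRT8 lay between 1019 and 1176 FPKM. Most of these 16 markers thus had no row, so the list by itself does not identify the cells as hepatoma. Of 10 markers of other cells 6 were listed, with COL3A1, ACTA2 and CD68 between 44.1 and 63.6 FPKM and COL1A1, CD14 and DCN between 0.1201 and 6.76 FPKM, whereas PTPRC, PECAM1, CDH5 and VWF had no row. Read depth is unknown, because the values are normalized.

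MLST8 (ENSG00000167965.17_3) occupies chromosome 16, positions 2255178 to 2259398 of GRCh37, and is read from the plus strand. Its FPKM summed over the listed transcripts was 2.64 and 2.34 for the controls, compared with 9.42 and 9.54 for the shKIAA1429 samples. The control mean was 2.49 ± 0.209 FPKM (SD, n = 2), and the shKIAA1429 mean of 9.48 ± 0.0792 FPKM (SD, n = 2) was 3.80 times as high. Both shKIAA1429 samples stood above both controls, and the replicates of a group lay close together. The log2 fold change of FPKM + 1 was 1.59 (SE 0.15), and among all 11657 genes tested 0.498% had a value above 1 in this direction. In the fits across all genes, 0 genes passed an adjusted p-value under 0.05 together with an absolute log2 fold change over 1 (0% of those tested, limma), while 347 genes (2.98%) were higher and 309 (2.65%) lower at an unadjusted p under 0.05. MLST8 was chosen on this contrast, and nothing is read from its place in these counts.

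The higher sum of MLST8 was carried by a single transcript. MLST8-219 (ENST00000565250.1_3, from 2255770 to 2259353) was at 0.369 and 0.404 FPKM in the controls, compared with 7.999 and 7.88 FPKM in shKIAA1429, a ratio of means of 20.6. It made up 14.0% and 17.2% of the MLST8 sum in the controls and 84.9% and 82.6% after KIAA1429 knockdown. The other 3 transcripts together went the opposite way. Their sum was 2.27 and 1.94 FPKM in shCtrl and 1.42 and 1.66 FPKM in shKIAA1429, so that without MLST8-219 the log2 fold change of the gene was -0.29. MLST8-203, the most abundant MLST8 transcript in both controls, was at 1.04 and 0.795 FPKM there and at 0.434 and 0.448 FPKM in shKIAA1429. MLST8-215 was at 0.559 and 0.536 FPKM against 0.428 and 0.334 FPKM. Only the values of MLST8-202 overlapped between groups, at 0.677 and 0.610 FPKM against 0.563 and 0.875 FPKM.

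**Figure D1:**
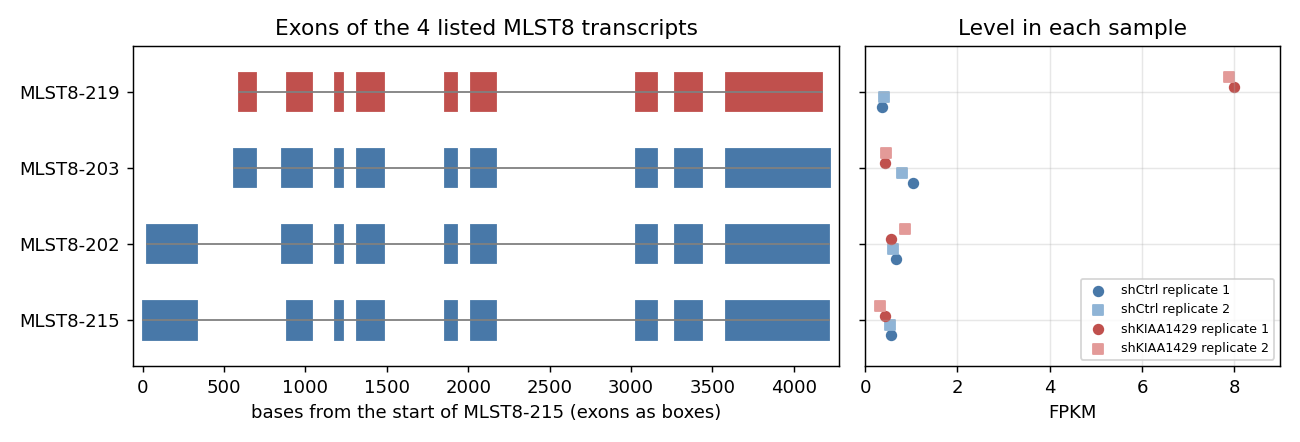
Left, exons of the 4 listed MLST8 transcripts against the distance in bases from the start of MLST8-215; right, FPKM of each transcript in the 4 samples (points, coloured by sample). The transcripts differ mainly at their 5′ ends, and only MLST8-219 exceeds 2 FPKM, at 7.999 and 7.88 FPKM in the shKIAA1429 samples.

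The 4 listed transcripts share most of their bases. In the GENCODE 44 annotation lifted to GRCh37, which holds 35 transcripts of MLST8, MLST8-219 has 9 exons and 1588 bases, of which 978 are coding. All 1588 also belong to MLST8-203, and MLST8-219 has 0 exonic bases outside the other listed transcripts. Its only private feature is 1 splice junction, from 2255876 to 2256062, ahead of the start codon: it joins the first exon of MLST8-203 to the second exon of MLST8-215. The coding sequence is that of MLST8-203 and MLST8-215. The assignment of fragments to MLST8-219 thus rests on this junction and on the ends of the transcript, and how the authors divided shared fragments is not stated. MLST8-202 alone differs within the coding part, by 3 bases, because its exon 3 begins at 2256362 and not at 2256359. The 30 bases across that coding junction are shown to let the transcripts be told apart, in lower case for exon 2 and in capitals for exon 3.
MLST8-219: cagcaccaggactccCAGGTGAATGCCTTG
MLST8-202: cagcaccaggactccGTGAATGCCTTGGAG
Read on the plus strand of chromosome 16, MLST8-202 lacks the CAG that opens exon 3 of MLST8-219, and MLST8-203 and MLST8-215 have the same exon 3 as MLST8-219.

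The catalytic subunit did not follow MLST8. MTOR (ENSG00000198793.12_3, chromosome 1, from 11166592 to 11322564, minus strand) was at 22.4 and 25.2 FPKM with the control hairpin versus 19.9 and 24.2 FPKM in shKIAA1429. The groups overlapped, and the log2 fold change was -0.11 (SE 0.16). The composition of MTOR was stable as well. The full-length MTOR-201, with 58 exons, took between 71.7% and 74.0% of the sum in the 4 samples. The shorter MTOR-202, for which the reference annotation gives no coding sequence, took between 22.1% and 24.7%. The ratio of MLST8 to MTOR, both per kilobase, was 0.118 and 0.0932 in shCtrl and 0.473 and 0.394 in shKIAA1429.

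RPTOR, the scaffold that brings substrates to mTORC1, was lower in both shKIAA1429 samples. RPTOR (ENSG00000141564.13_2, chromosome 17, from 78518677 to 78940168, plus strand) was at 21.2 and 23.6 FPKM with shCtrl, against 18.3 and 18.1 FPKM with shKIAA1429 (log2 fold change -0.28, SE 0.14). It was the only one of the 9 listed members with both shKIAA1429 values below both controls, an arrangement found in 16.7% of all genes tested. Its transcripts differed between the shKIAA1429 replicates far more than the sum did. RPTOR-201 was at 12.3 and 12.7 FPKM in the controls, compared with 15.03 and 2.81 FPKM in shKIAA1429. RPTOR-202 was at 3.37 and 2.04 FPKM in shCtrl, was listed at 0 in shKIAA1429 replicate 1 and stood at 10.9 FPKM in replicate 2. The short RPTOR-203, which ends within the first part of the gene, was lower in both knockdown samples, at 4.95 and 8.23 FPKM against 2.92 and 4.05 FPKM.

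RPTOR-202 skips 4 coding exons, 14 to 17, that RPTOR-201 holds, and has 0 exonic bases of its own, so the values of the pair depend on junction reads, on coverage of the skipped exons and on that of the longer first exon of RPTOR-201. The 2 transcripts share 3531 coding bases, and RPTOR-201 has 474 more. The junction after exon 13 tells them apart and is shown with exon 13 in lower case and the next exon in capitals, on the plus strand of chromosome 17.
RPTOR-201: ctcgcagtggacagcTCGTGCCAAGCGGAC
RPTOR-202: ctcgcagtggacagcGAGCTGGTGGTGGCT
In the shKIAA1429 replicates RPTOR-202 took 0% and 60.02% of the RPTOR sum, and in the controls 15.9% and 8.64%.

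AKT1S1 encodes PRAS40, an AKT substrate that binds RPTOR and inhibits mTORC1. AKT1S1 (ENSG00000204673.10_3, chromosome 19, from 50372295 to 50381716, minus strand) was at 37.2 and 37.7 FPKM with the control hairpin versus 51.2 and 55.9 FPKM with shKIAA1429 (log2 fold change 0.50, SE 0.13). AKT1S1, MLST8 and TSC2 were the 3 of 9 members with both shKIAA1429 values above both controls, which held for 16.9% of all genes. A pair of AKT1S1 transcripts with different first exons accounted for nearly all of the sum. AKT1S1-207 was at 30.01 and 31.0 FPKM in the controls and at 27.2 and 6.90 FPKM after knockdown. AKT1S1-203 was at 3.35 and 3.20 FPKM in the controls and at 20.4 and 45.7 FPKM after knockdown. AKT1S1-203 was thus higher in both shKIAA1429 samples, and replicate 2 differed most from the controls. The 2 transcripts share 4 exons and 768 coding bases, and AKT1S1-207 has 60 further coding bases in its first exon.

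The sum of FPKM over these transcripts is sensitive to their lengths, 2025 bases for AKT1S1-203 and 3075 for AKT1S1-207, since the same number of fragments gives a higher FPKM on the shorter transcript. Multiplying each value by the transcript's length, a calculation chosen after the data were seen, gave length-weighted levels (FPKM times kilobases) of 107.8 and 109.4 for AKT1S1 in shCtrl and 133.4 and 122.0 in shKIAA1429. The groups still did not overlap, but the ratio of means was 1.18, compared with 1.43 for the sum of FPKM. For MLST8 the same calculation gave 4.64 and 4.12 against 15.3 and 15.5, a ratio of 3.52.

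In mTORC2, the defining subunit RICTOR was low and level across the samples. RICTOR (ENSG00000164327.12_3, chromosome 5, from 38938021 to 39074510, minus strand) was at 3.67 and 2.94 FPKM with shCtrl, against 3.45 and 3.02 FPKM in shKIAA1429, with a log2 fold change of -0.02 (SE 0.17). RICTOR-201 led in all 4 samples, with 63.4% to 73.7% of the sum. MAPKAP1 encodes SIN1, the subunit that presents AKT to mTORC2, and stood above RICTOR per length in every sample. MAPKAP1 (ENSG00000119487.16_3, chromosome 9, from 128199672 to 128469513, minus strand) was at 34.0 and 29.3 FPKM in the controls, compared with 30.6 and 35.8 FPKM in shKIAA1429, with a log2 fold change of 0.07 (SE 0.16) and overlapping groups. Among its 12 listed transcripts the short MAPKAP1-210, which lacks the 3′ exons, led in every sample with 25.4% to 43.3% of the sum. MAPKAP1-206 was near 0 in a single library: it was at 3.996 and 3.22 FPKM in shCtrl, at 0.373 FPKM in shKIAA1429 replicate 1 and at 3.79 FPKM in replicate 2. In that same library MAPKAP1-202 and MAPKAP1-201 had their highest values, 5.85 and 2.46 FPKM, against 3.33 to 3.58 FPKM and 0.375 to 0.628 FPKM elsewhere.

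PRR5, also called Protor-1, is a RICTOR-binding subunit. PRR5 (ENSG00000186654.20_3, chromosome 22, from 45073014 to 45133561, plus strand) was at 10.1 and 8.50 FPKM with the control hairpin versus 11.1 and 3.93 FPKM in shKIAA1429. The low sum came from shKIAA1429 replicate 2 alone, and the log2 fold change of -0.41 (SE 0.44) was 0.24 without that library. Most of the PRR5 signal was not on the coding transcript: PRR5-202 lay between 0.817 and 1.10 FPKM in the 4 samples, while the noncoding PRR5-208 and PRR5-212 were at 4.88 and 4.62 FPKM in shKIAA1429 replicate 1 and at 1.00 and 1.10 FPKM in replicate 2.

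TSC2 encodes the GTPase-activating subunit of the TSC complex. TSC2 (ENSG00000103197.16_3, chromosome 16, from 2097466 to 2138721, plus strand) was at 13.2 and 13.2 FPKM with shCtrl, against 18.2 and 16.4 FPKM with shKIAA1429 (log2 fold change 0.37, SE 0.14). Of its 8 transcripts, 4 had both shKIAA1429 values above both controls, beside 18.5% of all listed transcripts. They were TSC2-202, TSC2-204, TSC2-207 and TSC2-225. TSC2-204 was at 3.05 and 2.69 FPKM in the controls, compared with 3.56 and 5.59 FPKM in shKIAA1429. The full-length TSC2-201 was at 3.42, 2.51 and 3.56 FPKM in the first 3 samples and at 0.0285 FPKM in shKIAA1429 replicate 2. TSC2-222 was at 3.20 FPKM in shKIAA1429 replicate 1 and at 0.340 FPKM or less in the others. TSC2-203 was at 1.95 FPKM in shCtrl replicate 2 and listed at 0 in the other 3 samples, so the mixture of TSC2 transcripts also differed between the controls.

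TSC1, the stabilizing partner of TSC2, was at 3.20 and 2.46 FPKM with the control hairpin versus 3.04 and 2.57 FPKM in shKIAA1429 (ENSG00000165699.13_2, chromosome 9, from 135766735 to 135820008, minus strand). The log2 fold change of the sum was -0.01 (SE 0.18). Within these overlapping sums, TSC1-208 was at 1.80 and 0.860 FPKM in the controls and was listed at 0 in both shKIAA1429 samples. TSC1-203 was at 1.37 and 0.794 FPKM in shCtrl against 1.39 and 1.71 FPKM, and TSC1-201 was at 0.0332 and 0.810 FPKM against 1.65 and 0.862 FPKM. TSC1-208 skips the coding exon of 153 bases that follows exon 2 and has 0 exonic bases of its own. Its junction is shown beside that of TSC1-203, on the minus strand of chromosome 9, with exon 2 in lower case and exon 3 of each transcript in capitals.
TSC1-203: gagccacatgacaagCACCTCTTGGACAGG
TSC1-208: gagccacatgacaagATGGACACTGACGTC
No TSC1 transcript exceeded 1.80 FPKM in any sample.

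**Figure D2:**
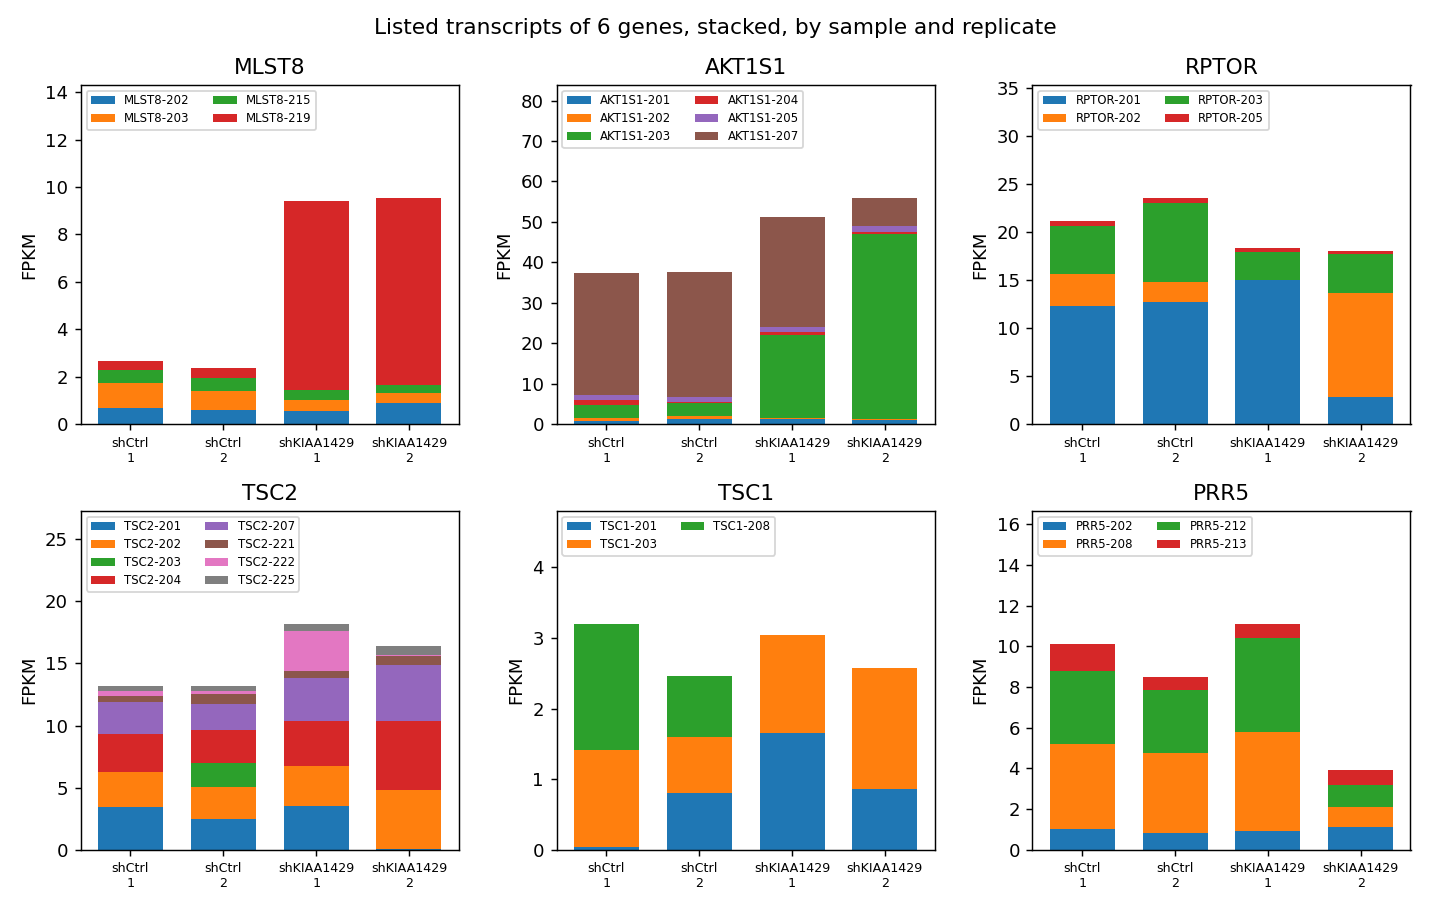
FPKM of each listed transcript of MLST8, AKT1S1, RPTOR, TSC2, TSC1 and PRR5, stacked in 1 bar per sample from 0. MLST8-219 fills most of both shKIAA1429 bars of MLST8, whereas RPTOR-202 and AKT1S1-203 take the largest part only in shKIAA1429 replicate 2.

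The most abundant transcript was not the same in all 4 samples for 6 of the 9 listed members. MTOR, RICTOR and MAPKAP1 were the exceptions. Across the 8503 tested genes with more than 1 listed transcript, 41.4% changed their leading transcript in this sense. MLST8 was the only member whose leading transcript agreed within each group and differed between the groups, with MLST8-203 in both controls and MLST8-219 in both shKIAA1429 samples, a pattern present in 3.27% of those genes. For RPTOR, AKT1S1 and PRR5 the exchange was seen in shKIAA1429 replicate 2 only. Of the 46 member transcripts, 14 had both shKIAA1429 values above both controls and 8 had both below, compared with 18.5% and 16.6% of all listed transcripts. These counts were chosen after the values were seen.

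By level, the members fell in the order AKT1S1, MAPKAP1, MTOR, RPTOR, TSC2, PRR5, MLST8, RICTOR and TSC1, from a mean over the 4 samples of 45.5 ± 9.49 FPKM (SD, n = 4) for AKT1S1 to 2.82 ± 0.358 FPKM (SD, n = 4) for TSC1. The ranges over the samples were apart for AKT1S1 and MAPKAP1, for MAPKAP1 and MTOR, and for TSC2 and PRR5. The other 5 neighbouring pairs had overlapping ranges. MLST8 changed its place: below RICTOR in both controls, and above RICTOR, TSC1 and, in shKIAA1429 replicate 2, PRR5 after knockdown. Counting protein-coding transcripts only, PRR5 moved to the last place and 5 neighbouring pairs were apart. All 9 listed members passed the filter of at least 1 FPKM in at least 2 samples, and their median log2 fold change was -0.01, the same to 2 decimals as the median of all genes tested.

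**Figure D3:**
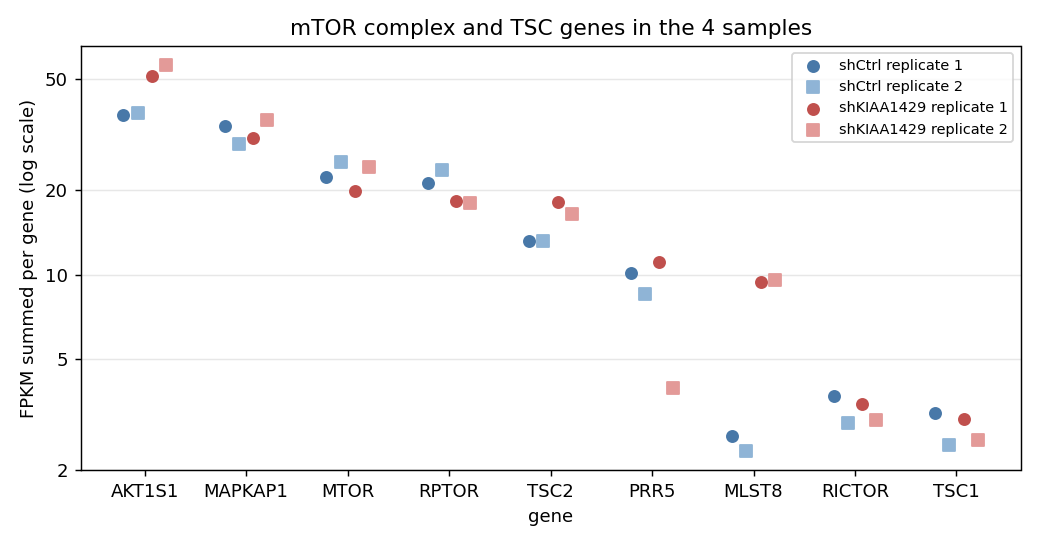
FPKM summed per gene (log scale) for the 9 listed members, ordered by mean level, with 1 point per sample. MLST8 stands at 2.64 and 2.34 FPKM with shCtrl, against 9.42 and 9.54 FPKM in shKIAA1429, and the group means of the other genes lie within a ratio of 1.43.

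The wider pathway was described with 9 lists of 97 symbols, older and current ones included, of which 88 were listed and 87 tested. No gene of these lists passed both thresholds in either direction by limma (0 higher, 0 lower). At an unadjusted p under 0.05, 3 of the 87 genes were higher (CAB39, GRB10 and SLC38A9) and 1 was lower (PRR5L), near the 2.98% and 2.65% of all genes tested. Over the 87 genes the fold change was positive for 44 and negative for 43, with a median of 0.02, and 11 had both shKIAA1429 values above and 11 below both controls, no larger a share than the 16.9% and 16.7% of all genes tested.

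Among factors of complex assembly, 7 of 7 genes were tested, with a median log2 fold change of -0.03. PRR5L, the paralog of PRR5 that also binds RICTOR, was at 16.1 and 20.8 FPKM in the controls, compared with 5.61 and 10.7 FPKM in shKIAA1429. On the log2 scale the difference was -1.14 (SE 0.32; adjusted p-value 0.730 by limma). PRR5L-216 carried the difference: it was at 9.76 and 11.2 FPKM in the controls and listed at 0 in both shKIAA1429 samples. Without transcripts of this kind, under 0.1 FPKM in 1 group and at least 5 FPKM in the other, the log2 fold change of PRR5L was -0.01. TBC1D7, a further subunit of the TSC complex, was at 3.80 and 7.61 FPKM against 5.62 and 7.86 FPKM, with overlapping groups.

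The lysosomal arm that brings mTORC1 to RHEB showed small differences. Of the 15 Rag, Rheb and Ragulator genes tested, 2 lay above and 3 below the controls without overlap, near the 16.9% and 16.7% of all genes, and the median log2 fold change was -0.02. SLC38A9, the lysosomal arginine transporter and sensor, had the highest fold change of this list, from 1.35 and 2.04 FPKM to 3.12 and 2.72 FPKM (0.55 on the log2 scale, limma adjusted p-value 0.884). LAMTOR5, a Ragulator subunit, had the lowest, from 39.1 and 45.4 FPKM to 38.4 and 30.4 FPKM (-0.29). The GATOR and KICSTOR regulators were balanced, with 6 of the 12 tested genes higher and 6 lower and a median of 0.01. Within them MIOS, a GATOR subunit, had the lowest log2 fold change, -0.45 (SE 0.21), from 9.56 and 6.88 FPKM to 6.32 and 5.11 FPKM.

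For the amino acid and stress sensors the list held 12 symbols, older and current names of the same gene included. Of these, 7 were tested, with a median log2 fold change of -0.10, and none separated the groups. GATSL2 and CASTOR2 were both tested, as separate genes on chromosome 7, so a sensor may count under both names here and in the pooled lists. DDIT4, a stress-induced inhibitor of mTORC1 that acts through TSC, was at 129 and 29.3 FPKM with the control hairpin versus 150 and 74.3 FPKM in shKIAA1429 (log2 fold change 0.77, SE 0.75). SESN2, a leucine sensor, had the same pattern, at 49.4 and 16.6 FPKM against 48.8 and 32.0 FPKM. SAR1B had the lowest fold change, -0.42 (SE 0.57). From the ATF4 list, which holds amino acid synthesis and transport genes, ATF4 was at 234 and 120 FPKM against 260 and 184 FPKM, and ASNS at 67.8 and 27.2 FPKM against 91.9 and 41.7 FPKM. In DDIT4, SESN2, ATF4 and ASNS replicate 1 was above replicate 2 in both groups. Other sensors went the other way: SAR1B, SESN1, GATSL2 and CASTOR2 had replicate 1 below replicate 2 in both groups. Within the ATF4 list every tested gene but ALDH18A1 had replicate 1 above replicate 2 in both groups. In the ATF4 list 8 of 11 tested genes had a positive fold change, with a median of 0.15, led by SHMT2 (0.52, SE 0.35), while SLC3A2 was at the low end (-0.24, SE 0.15). The groups overlapped for SHMT2, at 20.8 and 18.0 FPKM in the controls against 40.4 and 19.7 FPKM, so its rise came from shKIAA1429 replicate 1. ATF4, ASNS, SESN1, SESN2, GATSL2, CASTOR2 and ALDH18A1 were named after their values were seen.

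Of the AMPK and LKB1 genes, which signal low energy to TSC2 and RPTOR, 3 of 9 lay above and 1 below the controls, beside 16.9% and 16.7% of all genes. CAB39, the scaffold that activates LKB1, was at 6.22 and 6.46 FPKM with shCtrl, against 11.9 and 12.1 FPKM with shKIAA1429 (log2 fold change 0.82, SE 0.14, adjusted p-value 0.429 by limma). Its most abundant transcript in every sample, CAB39-201, was at 5.76 and 5.71 FPKM in the controls and at 11.6 and 11.5 FPKM after knockdown. PRKAG1, an AMPK regulatory subunit, was at 17.0 and 13.4 FPKM against 12.9 and 7.81 FPKM (-0.54, SE 0.27). PRKAG1-216 was at 12.4 and 9.17 FPKM in the controls and at 7.32 and 0.303 FPKM in shKIAA1429. PRKAG1-206 was at 1.73 and 1.64 FPKM against 1.90 and 6.19 FPKM.

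Among the substrates of mTORC1, 12 of 13 genes were tested, 2 above and 2 below the controls, as for 16.9% and 16.7% of all genes. GRB10, an adaptor that restrains insulin signalling, was at 9.82 and 6.65 FPKM in the controls, compared with 17.3 and 14.4 FPKM with shKIAA1429 (log2 fold change 0.88, SE 0.22, adjusted p-value 0.688 by limma). TFEB, the transcription factor of lysosomal genes, was at 5.80 and 4.96 FPKM against 4.10 and 3.94 FPKM (-0.34, SE 0.16). Its leading transcript also differed by group. TFEB-202 was at 3.57 and 3.54 FPKM in the controls and at 0.188 and 0.161 FPKM in shKIAA1429. TFEB-204 was at 0.647 and 0.369 FPKM against 3.04 and 2.86 FPKM. Among 6 effectors of S6 kinase, PDCD4 was at 0.31 (SE 0.25) and POLDIP3 at -0.35 (SE 0.31) on the log2 scale, with overlapping groups for both. Of the mTORC2 substrates 8 were tested, with 0 above and 1 below the controls (16.9% and 16.7% of all genes). SGK1 was at 45.5 and 32.6 FPKM against 31.6 and 24.5 FPKM (-0.45, SE 0.22), and AKT2 had a log2 fold change of 0.29 (SE 0.45).

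**Figure D4:**
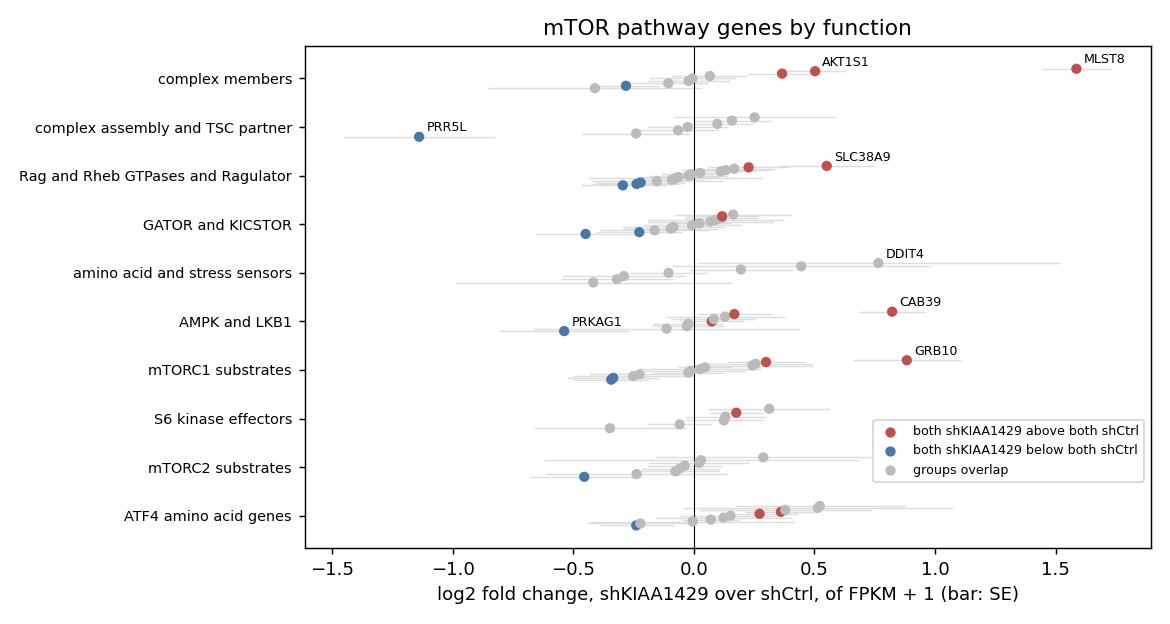
Log2 fold change of FPKM + 1, shKIAA1429 over shCtrl, with its SE (bars), for the 9 listed members and the 87 tested genes of 9 pathway lists; colour marks whether both shKIAA1429 values lay above or below both controls. MLST8 at 1.59 and PRR5L at -1.14 lie farthest from 0.

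Genes whose pattern over the 4 samples was most like that of MLST8 were taken by the Euclidean distance between profiles of log2(FPKM + 1), each less its own mean. Among the nearest 5 of the genes tested were GATA3, JPT2, PQLC1 and KIF3C, at distances of 0.204, 0.281, 0.303 and 0.392. A profile over 4 samples is short, and any gene with a similar difference between the groups comes near. GATA3 was at 9.80 and 8.85 FPKM with the control hairpin versus 34.1 and 35.3 FPKM in shKIAA1429, with GATA3-201 listed at 0 in both controls and at 24.3 and 24.4 FPKM after knockdown. In the files, the row of GATA3-201 is 1 of 2 that stand outside the order of transcript identifiers, and 0 of these 2 rows belong to a member. KIF3C was at 4.93 and 3.09 FPKM against 10.8 and 13.1 FPKM. KIF3C-201 was at 1.85 and 1.68 FPKM in the controls and at 8.92 and 11.7 FPKM in shKIAA1429. In shCtrl replicate 1 KIF3C-202 led, at 2.44 FPKM. JPT2, on chromosome 16 as MLST8 is, was at 6.59 and 6.93 FPKM against 19.5 and 25.4 FPKM, with JPT2-206 at 2.96 and 0.378 FPKM with shCtrl, against 15.4 and 14.1 FPKM in shKIAA1429. With a pseudocount of 0.1 in place of 1, 3 of the 5 genes were retained.

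Genes beside MLST8 did not share its difference. BRICD5, on the opposite strand, overlaps the 3′ end of MLST8 by 145 bases, and was at 0.509 and 0.625 FPKM in the controls, compared with 0.459 and 0.738 FPKM in shKIAA1429. Within 50000 bases lay SNHG19, TRAF7, CASKIN1, PGP, E4F1, ECI1, RNPS1 and AC009065.1. TRAF7, upstream, was at 41.1 and 42.7 FPKM against 47.5 and 41.3 FPKM, and PGP, downstream, at 10.3 and 15.3 FPKM against 8.25 and 13.2 FPKM. E4F1 was the only one of these with both shKIAA1429 values above both controls, by a log2 fold change of 0.11 (SE 0.14). AC009065.1 had both below, at 0.872 and 1.07 FPKM against 0.446 FPKM and a value listed at 0. TSC2, on the same chromosome, overlaps NTHL1 by 402 bases on the opposite strand, and NTHL1 was at 17.2 and 16.4 FPKM with the control hairpin versus 13.2 and 12.7 FPKM in shKIAA1429, the reverse of TSC2. TSC2 also meets PKD1 by 11 bases at its 3′ end. TBC1D17 overlaps AKT1S1 by 1035 bases and was level, at 10.8 and 10.1 FPKM against 10.3 and 9.77 FPKM. Reads from overlapping genes cannot be told apart where strand is not stated to have been used.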

How the data were processed

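RNA-seq of 2 shCtrl and 2 shKIAA1429 samples was used, grouped by title. By the methods of the study, paired reads were aligned with TopHat and counted with HTSeq; the submitters' processing notes name Bowtie2 2.1.0 and hg19. The deposited files hold FPKM per transcript, made by the authors with a tool not given in the sources used here, and no counts. FPKM divides by length and by the total mapped, so depth and counting error are unknown. The FPKM summed to between 370253.5 and 390224.4 per sample. In 2 files the gene symbols of up to 108 transcript rows per file had become dates and were restored from the other files.

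FPKM was summed per gene. Genes with at least 1 FPKM in at least 2 samples (11657) were fitted on log2(FPKM + 1) with limma 3.58.1 in R 4.3.3 (eBayes with trend, group only, two-sided, Benjamini-Hochberg over all genes; thresholds adjusted p-value 0.05 and absolute log2 fold change 1). This scale understates changes of low genes. The fit was tested on simulated data. All 46 member transcripts were found in GENCODE 44 on GRCh37, 33 with the same start and end; lengths and exons are those of the annotation. The junction sequences were read from that genome. The members and lists were chosen with earlier results of these data known. Named were all members, the 5 genes nearest to MLST8, the highest and lowest fold change of each list, genes overlapping a member or within 50000 bases of MLST8, and VIRMA. Of the genes this rule names, 2 are not reported here. Alternatives covered scaling, filter, pseudocount, thresholds, the replicate block, a robust variance, which transcripts are summed, and each sample left out. Figures were drawn with matplotlib 3.10.9.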

Additional observations from a re-analysis of the deposited data

How the results depend on the processing

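The log2 fold change of MLST8 (1.59) lay between 1.54 and 2.69 in the 10 other settings with all samples. The filters, the replicate block, the robust variance and the restriction to protein-coding transcripts could not move it and returned 1.59. In the 4 fits that each left out a sample it lay between 1.53 and 1.65. Such a fit assumes that the lone sample of a group varies like the other group. Both shKIAA1429 values lay above both controls, so leaving out a sample could not turn the sign. The log2 fold change was 1.89 with a pseudocount of 0.1 and 2.69 with the transcript of highest mean only. Of the alternatives added after the data were seen, the length-weighted sum gave 1.501, while the plain log2 of its ratio of means was 1.81. Leaving out transcript MLST8-219, also added then, reversed the fold change to -0.29. No member transcript met the definition of switching, so that alternative left the members as they were.

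Taking only the transcript with the highest mean moved RPTOR to -0.79, AKT1S1 to -1.08, MAPKAP1 to -0.18, TSC1 to 0.30 and TSC2 to 0.50, and the length-weighted sum moved AKT1S1 to 0.23. With a sample left out at a time, MTOR ranged from -0.24 to 0.03, RICTOR from -0.14 to 0.10, MAPKAP1 from -0.04 to 0.17, PRR5 from -1.06 to 0.24 and TSC1 from -0.14 to 0.13, so none of these 5 has a direction. RPTOR, AKT1S1 and TSC2 kept theirs in 4 of 4, which was fixed in advance because their groups did not overlap. Of the genes most like MLST8, 3 remained with a pseudocount of 0.1, and 5 neighbouring pairs of levels were apart with protein-coding transcripts only.

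Genes past both thresholds numbered 0, and 125 by log2 fold change alone, without a test; of the pathway genes 1, PRR5L, passed that fold change. With a sample left out, a group holds a lone sample, so no count is read from those fits. HIST4H4 stood out only without shCtrl replicate 1, the control at 137.4 FPKM. It was at 1.85 FPKM in shCtrl replicate 2 and at 144.7 and 167.9 FPKM in shKIAA1429. The groups share replicate numbers, but no label ties them to a batch: same-numbered deviations correlated at 0.32 across genes over only 2 pairs. With the replicate block 0 genes passed both thresholds. The block cannot move a fold change in this balanced layout, so the unchanged 1.59 of MLST8 says nothing about a batch.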
